A study of Homo sapiens with 4 samples.

Results

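The unfolded protein response of the endoplasmic reticulum (ER) was examined through 10 genes in H1299 cells given mercury chloride. The genes, chosen by name, are HSPA5, HSP90B1, XBP1, HERPUD1, DNAJB9, DNAJB11, DNAJC3, ERN1, ATF6 and PDIA4. All transcripts annotated to them were taken, which gave 59 of the 227368 transcripts in the count table. H1299 is a widely used cell line from a human lung carcinoma of the non-small-cell type. Cells of the HgCl2 group received 5 μM HgCl2 for 48 h, and cells of the EtOH group received the ethanol solvent and carry the treatment label wild type. The treatment text of the labels names 5 μM HgCl2 for all 4 samples, whereas the study's methods describe the EtOH cells as solvent controls, and the latter is followed here. Each group has 2 columns of values, replicates 1 and 2, from poly-A RNA. The comparison asks how a low concentration of mercury chloride alters the transcripts of these cells.

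In the ER, newly made secreted and membrane proteins are folded by chaperones. When unfolded proteins accumulate, the sensors ERN1 (also called IRE1), ATF6 and EIF2AK3 (PERK) are released from the chaperone HSPA5 and start the unfolded protein response. ERN1 cuts a short intron out of XBP1 mRNA so that an active transcription factor is made, ATF6 is cut into a transcription factor in the Golgi, and PERK phosphorylates the initiation factor eIF2α. The induced genes encode chaperones, disulfide isomerases and parts of the machinery that degrades misfolded proteins. Inorganic mercury binds thiol groups, which ER proteins use to form disulfide bonds.

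The factors of this response act through short promoter elements. The ER stress response element (ERSE, CCAAT and CCACG with any 9 bases between) was searched on both strands in the RefSeq promoters of GRCh38.p14, from 250 bases before to 50 bases after each start site. It is present in 27 of 35116 promoters (0.0769%), among them those of HSPA5, HSP90B1 and XBP1. The related ERSE-II (ATTGG and CCACG with any 1 base between) is present in 19 promoters (0.0541%), among them that of HERPUD1. One or the other was found for 4 of the 10 genes, all of which have a promoter in the table, against 0.131% of all promoters. The first is a share of genes and the second of promoters. As the genes were chosen as members of this response, both shares only describe them. The core TGACGTGG of a further element was in 256 promoters (0.729%) and in none of the 12 promoters of the 10 genes. The 5 matches, found in 4 of the 10 genes, are printed with the element in capitals and 15 bases on each side. A match describes letters and does not show binding. The second HSP90B1 match is on the strand opposite to the gene and is printed as that strand reads.
HSPA5, chr9:125241376-125241424, minus strand: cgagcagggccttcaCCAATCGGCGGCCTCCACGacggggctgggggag
HSP90B1 first, chr12:103930201-103930249, plus strand: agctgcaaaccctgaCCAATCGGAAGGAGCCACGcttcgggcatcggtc
HSP90B1 second, chr12:103930306-103930354, minus strand: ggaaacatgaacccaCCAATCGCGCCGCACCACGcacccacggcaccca
XBP1, chr22:28800588-28800636, minus strand: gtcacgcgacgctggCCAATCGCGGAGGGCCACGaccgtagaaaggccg
HERPUD1, chr16:56932010-56932050, plus strand: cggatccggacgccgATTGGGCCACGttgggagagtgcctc

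Another sequence bears on what can be read for XBP1. The intron that ERN1 removes is annotated in GRCh38 at chr22:28796128-28796153 on the minus strand and has 26 bases, in capitals below with 15 bases on each side. It is absent from the exons of XBP1-202 and lies within an exon of XBP1-201, XBP1-203, XBP1-204 and XBP1-206.
XBP1 intron: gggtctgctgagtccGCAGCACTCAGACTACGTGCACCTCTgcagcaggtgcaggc
XBP1-201, XBP1-202 and XBP1-203 had 0 counts in all 4 columns, so the splicing of XBP1 mRNA, which is the direct readout of ERN1 activity, cannot be read from this table.

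Total counts were 5051958 and 5053120 for EtOH and 4722772 and 4720978 for HgCl2. Within a group, the 2 columns were closer to each other than sampling noise allows for separate libraries. The variance of their difference was 0.505 times that of independent sampling in EtOH and 0.516 times in HgCl2, over 12382 and 10611 transcripts with at least 20 counts in the pair, against 31.9 and 31.8 between the groups. Each group was therefore counted as 1 sample and no p-value is given. Every difference below compares 1 sample per group without a replicate check, and the intervals (95%, Clopper-Pearson, from the mean counts) cover counting error only. The cells and the amount of RNA per cell behind a count cannot be told apart. Other features of the libraries moved with the groups. Transcripts of the mitochondrial genome held 24.8% of the counts in EtOH and 17.9% in HgCl2, and 33106 to 33148 transcripts had a count in an EtOH column against 25432 to 25531 in an HgCl2 column. Their part in the results was not tested. Of the markers, VIM had 501 to 628 counts per column and KRT18 18 to 31. Others differed between the groups. HMGA2 had 34704 and 35108 counts in EtOH and 94083 and 93809 in HgCl2, KRT8 had 53 and 58 against 4 in each HgCl2 column, and CDH2 had 13 in each EtOH column against 1 and 2. PTPRC, CD68, CD3E, CD79A and ALB, which mark blood cells and liver, were at 0, COL1A1 had 13 and 18 counts in EtOH and 3 and 4 in HgCl2, and PECAM1 and COL3A1 had 0 to 5.

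The table does not count all transcripts of these genes alike. Of the 59 transcripts, 27 had a count in any column and 32 were at 0. Among the 29 protein-coding transcripts, 19 were at 0, while 16 of the 23 retained introns (transcripts that keep an intron) had counts. By GENCODE 44, 18 of the 22 transcripts with a run of at least 150 bases that no other listed transcript covers had counts, against 9 of the 37 without such a run. MANE Select transcripts, the agreed reference transcript of a gene, are listed for 9 of the genes, and 3 of these were at 0, those of HSP90B1, DNAJB11 and PDIA4. A count of 0 here therefore does not show that a gene is silent, and a value of a transcript is not taken for the level of its gene. A further 64 transcripts that GENCODE 44 gives to these genes are not in the table.

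**Figure D1:**
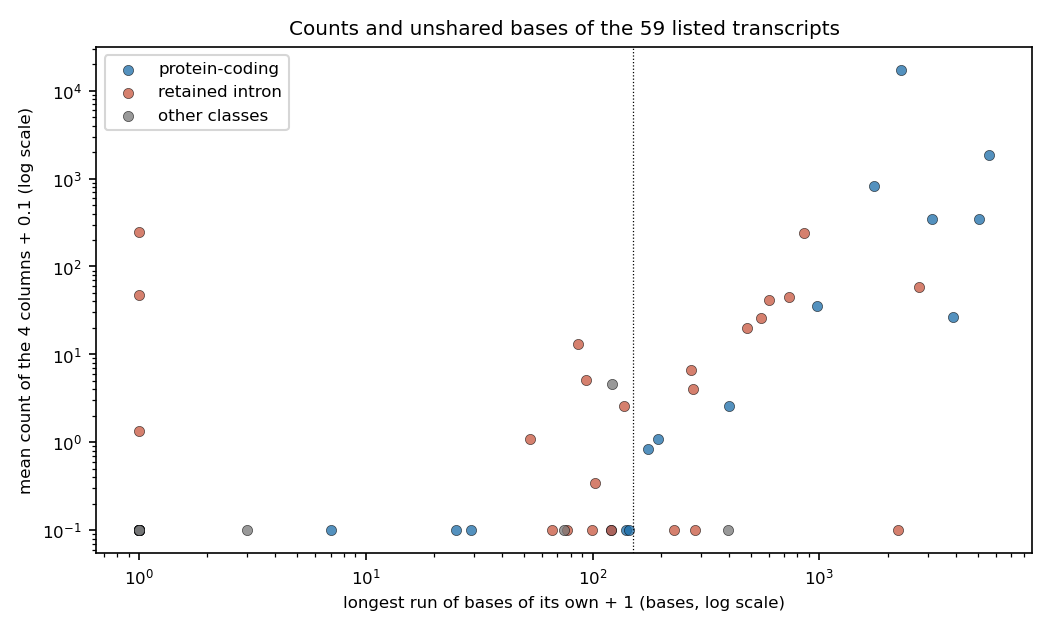
Mean count over the 4 columns plus 0.1 (log scale) against the longest run of bases that no other listed transcript covers, plus 1 (log scale), for the 59 transcripts; the dotted line marks 150 bases. Most points at the bottom, which have 0 counts, lie left of the line, and the well-counted protein-coding transcripts lie right of it.

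FPKM divides counts by transcript length and library size. Of the 59 transcripts, 21 averaged more than 1 FPKM in EtOH or HgCl2, and these were compared, together with all 17547 transcripts that passed. They comprise 8 protein-coding transcripts, 12 retained introns and 1 transcript with no defined coding sequence. At least 2-fold higher in HgCl2 were 3 of the 21 (14.3%), against 19.2% of all transcripts compared, and at least 2-fold lower were 5 (23.8%), against 34.1%. The 13 transcripts that averaged 30 counts or more in a group held 1 of the higher and 1 of the lower ones, against 21.3% and 13.2% of all 8545 such transcripts. The 7 with at least 200 counts held none in either direction, against 6.94% higher and 3.07% lower of 2999. The other 6 of the 8 rest on means under 30 counts, and 4 of the 8 averaged 3 counts or fewer in a group. One of these, HSP90B1-207, had 4 and 6 counts in EtOH and 0 in HgCl2. Against a limit of 3 counts per group it was 1.51-fold lower, which is under 2-fold. This bound leaves out the counting error of EtOH. The upper end of the log2 interval of HSP90B1-207 was 0.27, so the interval includes 0. The number of higher transcripts was 5 without HgCl2 replicate 1, 4 without EtOH replicate 2 and 2 without HgCl2 replicate 2.

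The median log2 fold change was 0.19 over the 21 transcripts and -0.21 over all transcripts compared. For those with at least 30 counts it was 0.42 (n = 13) against 0.23, and for those with at least 200 counts 0.19 (n = 7) against 0.21. Under other scalings and filters the last reference was 0.04 where every column had to hold 10 counts, 0.35 with no filter and 0.38 on the deposited FPKM scale. Differences from this reference are given below for the transcripts with the most counts.

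**Figure D2:**
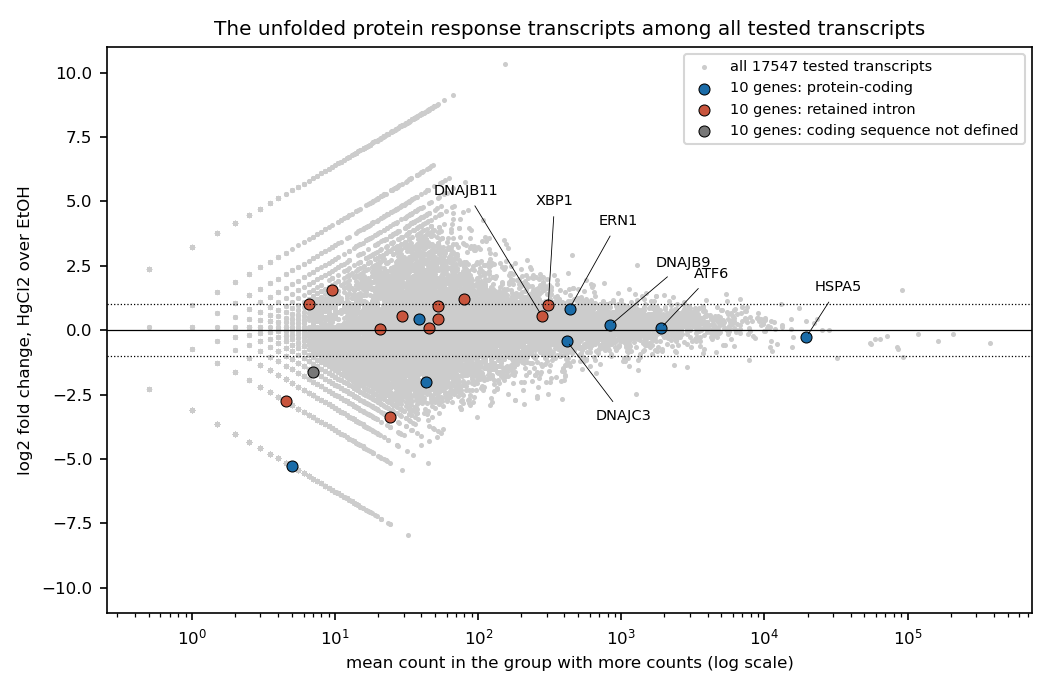
Log2 fold change of HgCl2 over EtOH (values fitted by edgeR, which for groups near 0 counts depend on its prior count) against the mean count in the group with more counts (log scale), for all 17547 transcripts compared (grey) and the 21 of the 10 genes (coloured by class); genes with at least 200 counts are named, and dotted lines mark 2-fold. The 7 named genes lie between -0.42 and 0.97.

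HSPA5, also called BiP or GRP78, is the ER member of the HSP70 chaperones and holds the sensors inactive. It had the most counts of the 10 genes by far. Its only listed transcript, HSPA5-201 (ENST00000324460, chr9:125234853-125241343, 8 exons, 3921 bases, all of them its own), ranked 20 by mean count among all transcripts. It had 19572 and 19598 counts in EtOH and 14710 and 14646 in HgCl2, which is 82.6% to 82.8% and 77.3% to 77.6% of the counts of the 10 genes. The HgCl2 columns lay below both EtOH columns, which adds no replicate check because each group counts as 1 sample. The log2 fold change was -0.27 (95% interval -0.30 to -0.24), or 0.828-fold. It was below 0 under all settings used, from -0.45 to -0.09. Relative to the median of transcripts with at least 200 counts it was -0.49, and 18.7% of these 2999 transcripts had a lower value. A processed copy of the gene, HSPA5P1, went the other way, with 136 and 150 counts in EtOH and 273 and 274 in HgCl2 (log2 fold change 1.08, interval 0.78 to 1.38). How reads that match the gene and the copy were counted is not given in the sources used here.

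HSP90B1 (GRP94) is the HSP90 chaperone of the ER. Its MANE transcript HSP90B1-201 had 0 counts and no base of its own, so that the gene was seen only through other transcripts, 6 of the 11 listed. HSP90B1-209, a retained intron (ENST00000552051), had 35 and 40 counts in EtOH and 74 and 85 in HgCl2. The log2 fold change of 1.22 (0.65 to 1.83) was the only one of at least 2-fold higher among the 13 transcripts with at least 30 counts. It lay between 1.05 and 1.36 over all settings. The length behind the deposited FPKM of this transcript was 581 bases, while GENCODE 44 gives it 5608, so its present coordinates are not those that were counted. HSP90B1-208 (retained intron, chr12:103941834-103943467) had 43 counts in each EtOH column and 50 and 54 in HgCl2 (0.42, -0.19 to 1.04). HSP90B1-204 (retained intron, 553 own bases in intron 2) had 21 and 23 against 31 and 28 (0.56, -0.28 to 1.43). The intervals of the last pair of transcripts include 0. UQCC6 overlaps the region of HSP90B1-208 and HSP90B1-209 on the other strand, and whether strand was used in counting is not given in the sources used here.

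ERN1 is the sensor kinase and endoribonuclease that splices XBP1. ERN1-201 (ENST00000433197, the MANE transcript, chr17:64039142-64130144, 22 exons, 6461 own bases) had 265 and 270 counts in EtOH and 430 and 438 in HgCl2. This gives a log2 fold change of 0.84 (0.62 to 1.07), or 1.79-fold, the largest increase of the protein-coding transcripts compared for these genes. It was between 0.67 and 0.98 over all settings and 0.63 above the median of transcripts with at least 200 counts, higher than 89.0% of them. ERN1-207 (ENST00000606895), a shorter transcript also classed as protein-coding, went the opposite way with 46 and 40 counts in EtOH and 10 and 9 in HgCl2 (-2.02, or 0.246-fold). It was the only one of the 13 transcripts with at least 30 counts that was at least 2-fold lower. Its value was -1.22 at the least under the settings that kept it, and it did not pass where every column had to hold 10 counts. Its counted length was 2068 bases against 4717 in GENCODE 44, where it is a single exon over intron 1 of ERN1-201 and the bases before its start. A long noncoding RNA, ENSG00000289957, overlaps it on the other strand. ERN1-201 held 85.1% of the ERN1 counts in EtOH and 97.7% in HgCl2. With its transcripts summed, ERN1 had a log2 fold change of 0.67.

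ATF6 is the sensor that is itself cut into a transcription factor. ATF6-201 (ENST00000367942, 16 exons, 7470 bases, of which 7086 are its own) had 1858 and 1908 counts in EtOH and 1820 and 1770 in HgCl2. The log2 fold change was 0.07 and its interval, -0.02 to 0.17, included 0. The sign depended on the scaling, from -0.10 with at least 10 counts in every column to 0.25 on the FPKM scale, and relative to the median of transcripts with at least 200 counts the value was -0.14.

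XBP1 is the transcription factor downstream of ERN1. Of its 6 transcripts, XBP1-206 (ENST00000484256, a retained intron, chr22:28794559-28797045) held 96.7% of the counts in EtOH and 99.8% in HgCl2. All 853 bases that it shares with no other transcript lie in intron 3 of XBP1-201, the intron just before the exon with the 26 bases printed above. It had 168 and 180 counts in EtOH and 289 and 327 in HgCl2, a log2 fold change of 0.97 (0.69 to 1.24). This is just under 2-fold and passed 2-fold without EtOH replicate 2 (1.02) and without HgCl2 replicate 1 (1.05), with DESeq2 (1.01), on the FPKM scale (1.09) and with no filter (1.11). It was higher than 92.5% of the transcripts with at least 200 counts, most of which are protein-coding. In its own class, the 186 retained introns with such counts, the median was 0.63 and 27.4% were at least 2-fold higher. XBP1-205, a shorter retained intron, had 4 and 5 counts against 0 and 1 (-2.76, -13.2 to 0.90).

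DNAJB9, DNAJB11 and DNAJC3 are DnaJ co-chaperones of HSPA5 in the ER lumen. DNAJB9-201 (ERdj4, ENST00000249356, chr7) had 814 and 802 counts in EtOH and 844 and 827 in HgCl2, a log2 fold change of 0.19 (0.05 to 0.33). It was 0.02 to 0.36 over all settings and lay at the median of transcripts with at least 200 counts, with a difference of -0.02. DNAJC3-202 (p58IPK, ENST00000602402, chr13, of which 3317 of 5590 bases are its own) was lower, with 426 and 404 counts in EtOH and 264 and 299 in HgCl2. Its log2 fold change was -0.42 (-0.64 to -0.19), from -0.59 to -0.22 over all settings. Relative to the median of transcripts with at least 200 counts it was -0.63, and 13.4% of these had a lower value. The processed pseudogenes MTCYBP3, MTND5P2 and MTND6P18 overlap the region of DNAJC3-202, and whether they add to its counts was not tested. The third, DNAJB11 (ERdj3), was seen mainly through the retained intron DNAJB11-204, whose counted length was 4079 bases against 5230 in GENCODE 44. By GENCODE 44 it has no base of its own. The protein-coding ENSG00000283149 on the same strand and HRG-AS1 on the other strand overlap its region. Whether they add to its counts was not tested. DNAJB11-204 had 208 and 210 counts in EtOH and 277 and 279 in HgCl2 (0.55, 0.29 to 0.82). DNAJB11-203, another retained intron, had 19 and 22 against 17 and 21 (0.03, -0.95 to 1.01), and the MANE transcript DNAJB11-201 was at 0.

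**Figure D3:**
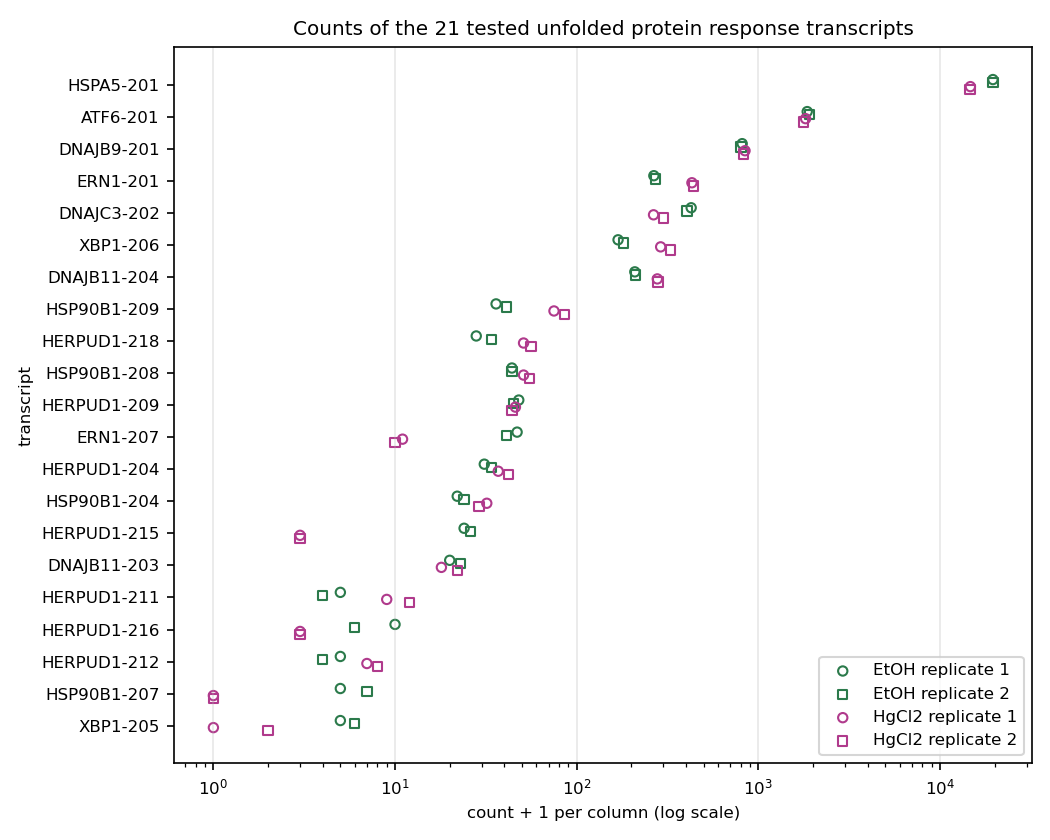
Counts plus 1 (log scale) in each of the 4 columns for the 21 transcripts compared, ordered by count; green marks EtOH and purple HgCl2, with circles for replicate 1 and squares for replicate 2. HSPA5-201 and DNAJC3-202 are lower and ERN1-201, XBP1-206 and DNAJB11-204 higher in both HgCl2 columns. The columns of a group are counted as 1 sample.

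HERPUD1 is a membrane protein of the complex that degrades misfolded ER proteins. It had counts on 7 of its 19 transcripts, all small and with 144 to 161 counts per column in all. The MANE transcript HERPUD1-204 (chr16:56932142-56944864), counted through 978 own bases in exon 8, had 30 and 33 counts in EtOH and 36 and 41 in HgCl2 (0.43, -0.28 to 1.16). The retained introns diverged. HERPUD1-218, with 596 own bases in intron 4, had 27 and 33 against 50 and 55 (0.95, 0.28 to 1.65), and was over 2-fold without EtOH replicate 2 (1.10), without HgCl2 replicate 1 (1.01) and with no filter (1.09). HERPUD1-209, with 736 own bases in intron 3, had 47 and 44 against 45 and 43, a log2 fold change of 0.09 (-0.54 to 0.73) that was -0.08 with at least 10 counts in every column. In the same intron 3, HERPUD1-215 had 23 and 25 counts in EtOH and 2 in each HgCl2 column (-3.37, -6.57 to -1.43). HERPUD1-211 and HERPUD1-212 were higher and HERPUD1-216 lower by at least 2-fold on 2 to 11 counts per column, with intervals that included 0, and HERPUD1-212 was under 2-fold without EtOH replicate 2 (0.83) and without HgCl2 replicate 2 (0.89). Summed over its transcripts, HERPUD1 had a log2 fold change of 0.27.

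PDIA4 (ERp72) is a protein disulfide isomerase of the ER. None of its 4 transcripts had a count in any column. This sets no limit on the level of the gene, as its protein-coding transcripts share most of their bases. Its longest run of unshared bases, 227, is in a retained intron, and its MANE transcript PDIA4-204 has 6 bases of its own. The gene could not be compared.

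The 6 transcripts with counts that were under the FPKM limit had at most 9 counts in a column, and 4 of them were at 0 in both HgCl2 columns. The share of all such transcripts at 0 in HgCl2 is not given here, so this count has no reference. Fewer transcripts had a count in HgCl2 over the whole table too. Of the 6, HSP90B1-203 had the most counts, with 7 and 9 in EtOH. It was 2.41-fold lower in HgCl2 against the limit of 3 counts, without the counting error of EtOH.

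**Figure D4:**
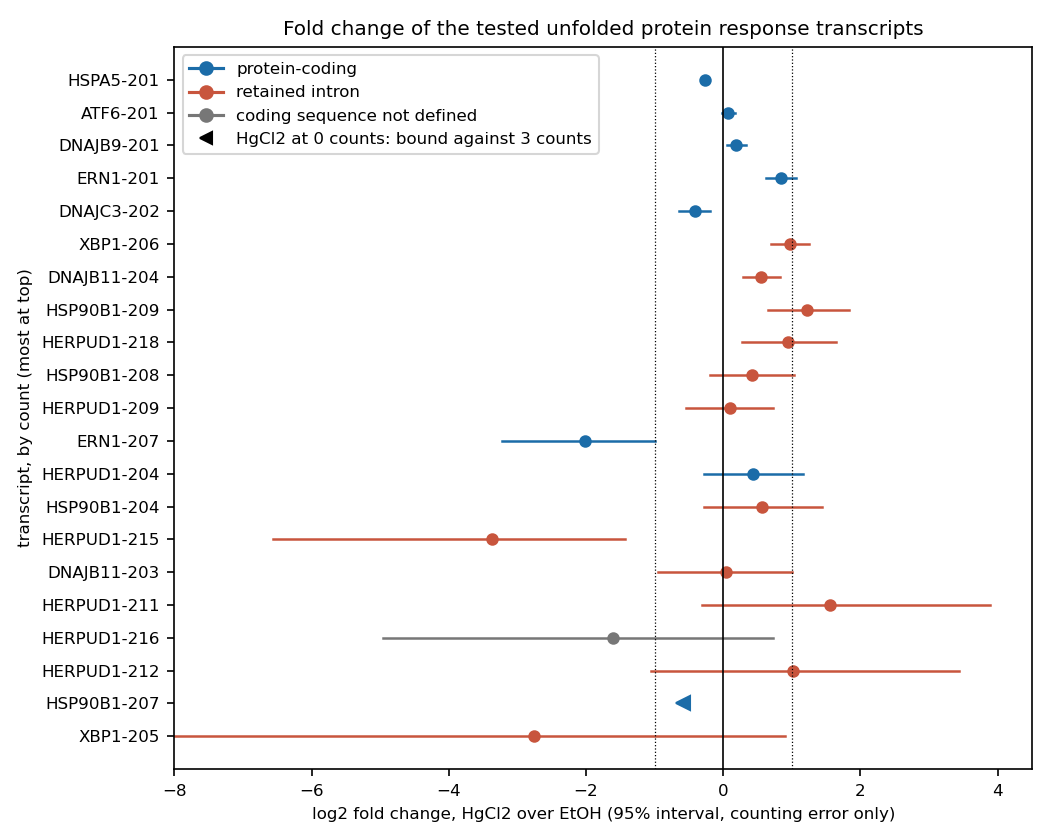
Log2 fold change of HgCl2 over EtOH with 95% intervals for counting error, for the 21 transcripts compared, from most to fewest counts; the interval of XBP1-205 is cut at -8, the triangle for HSP90B1-207 is a bound against 3 counts, and dotted lines mark 2-fold. The protein-coding transcripts with the most counts lie between -0.42 and 0.84 and the retained introns with at least 30 counts between 0.09 and 1.22.

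Per length, on the deposited FPKM scale, the well-counted protein-coding transcripts ran from HSPA5 to HERPUD1 in EtOH. HSPA5-201 had an FPKM of 909, DNAJB9-201 61.1, ATF6-201 45.9, DNAJC3-202 13.5, ERN1-201 6.17, ERN1-207 3.79 and HERPUD1-204 2.01. In HgCl2 the levels in the same order were 851, 78.9, 54.7, 11.5, 12.5, 1.04 and 3.07, so that DNAJC3-202 and ERN1-201 exchanged places, as did ERN1-207 and HERPUD1-204. These levels divide by the whole length although counts fall mainly on unshared bases, and 1 count is worth 1.25 times more FPKM in HgCl2 than in EtOH.

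Retained introns and protein-coding transcripts were also set against their own classes. All 6 retained introns of these genes with at least 30 counts had a log2 fold change above 0, with a median of 0.75. Among all 1481 such retained introns 72.9% were above 0 and the median was 0.70. The 7 protein-coding transcripts had a median of 0.07, with 4 above and 3 below 0, against 0.14 for all 4566. Retained introns made up 2.60% and 2.72% of the counts of the 10 genes in EtOH and 4.48% and 4.83% in HgCl2. Without HSPA5, which holds most of these counts and was itself lower in HgCl2, the shares were 15.1% and 15.7% against 19.95% and 21.27%. Over the whole table these shares were 3.28% and 3.26% against 4.08% and 4.07%. The medians of the 10 genes lay near those of their classes, and the share of retained introns was higher in HgCl2 both for these genes and for the table.

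With all transcripts of a gene summed, none of the 9 genes with counts differed 2-fold between the groups. The share of all summed genes that did is not given here, so this count has no reference. The sums were scaled by a separate fit, so that HSPA5 with its 1 transcript has -0.25 here against -0.27 above. XBP1 (0.95), ERN1 (0.67), HSP90B1 (0.65) and DNAJB11 (0.53) had the highest values and DNAJC3 (-0.39) and HSPA5 (-0.25) the lowest, with DNAJB9 (0.22), HERPUD1 (0.27) and ATF6 (0.10) between. For XBP1, HSP90B1, DNAJB11 and HERPUD1 these sums are mainly retained introns.

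The wider pathway was described with 59 further genes, taken by role. Of these, 52 had a count and 37 had at least 1 transcript that was compared, 76 transcripts in all. At least 2-fold higher were 25 (32.9%, against 19.2% of all) and lower were 11 (14.5%, against 34.1%), and 18 of these 36 averaged 3 counts or fewer in a group. With at least 30 counts, 11 of 39 (28.2%, against 21.3%) were higher and 2 (5.13%, against 13.2%) lower. Their median log2 fold change was 0.31 against 0.23 for all transcripts with such counts. With at least 200 counts, 2 of 22 (9.09%, against 6.94%) were higher and 1 (4.55%, against 3.07%) lower, and the median of 0.21 was equal at this precision to that of all.

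The targets of the PERK branch had the highest median of the 5 roles, 1.19 over 10 transcripts of 6 genes with at least 30 counts. This median counts each transcript, and most of the transcripts are of ASNS and ATF3. Those of the other genes ran from -1.28 to 0.35. Of the 10 transcripts, 5 were at least 2-fold higher (50%, against 21.3% of all transcripts and 39.5% of all retained introns with such counts). They belong to 2 genes, and 3 of them are retained introns, 1 is protein-coding and 1 has no defined coding sequence. Asparagine synthetase, ASNS, contributed 3. ASNS-217, a retained intron, had 102 and 94 counts in EtOH and 272 and 288 in HgCl2 (1.66), and the retained intron ASNS-216 had 43 and 44 against 132 and 112 (1.63). The protein-coding ASNS-210, of 579 bases with 164 its own, had 58 and 64 against 212 and 234 (2.01, 1.60 to 2.45). Under 30 counts, the also protein-coding ASNS-207 was lower, with 10 and 12 against 5 and 6 (-0.84, -2.65 to 0.74). The stress transcription factor ATF3 contributed the retained intron ATF3-208 with 14 and 15 against 46 and 45 (1.78) and ATF3-209, with no defined coding sequence, with 6 and 9 against 39 and 41 (2.54). The transcripts of PPP1R15A, which encodes the inducible phosphatase subunit GADD34, went opposite ways. PPP1R15A-201 had 51 counts in each EtOH column and 16 and 22 in HgCl2 (-1.28, -2.12 to -0.50), while PPP1R15A-202, also protein-coding and under 30 counts, had 1 and 0 against 26 and 29 (5.59, 2.59 to 15.96). Summed over both, the gene had 52 and 51 counts in EtOH and 42 and 51 in HgCl2. TRIB3-201, a pseudokinase, had 264 and 283 against 154 in each HgCl2 column (-0.68), and DDIT3-205, which encodes the death-related factor CHOP, had 56 in each EtOH column against 48 and 36 (-0.27, -0.88 to 0.33). The constitutive phosphatase subunit PPP1R15B-201 had 2225 and 2234 against 2597 and 2536 (0.35). Under 30 counts, ATF4-201 of the same list was lower, with 18 and 16 against 2 and 0 (-3.79, -9.33 to -1.27). CHAC1-203 had 8 in each EtOH column against 4 and 1 and was under the FPKM limit.

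In the other roles 6 of 29 transcripts with at least 30 counts (20.7%, against 21.3% of all) were at least 2-fold higher and 1 (3.45%, against 13.2%) was lower. The share of higher ones was near that of the table. The lower one was PDIA3-201, a disulfide isomerase that works with the lectin chaperones, with 381 and 395 counts in EtOH and 116 in each HgCl2 column (-1.60, -1.91 to -1.30). Higher were MBTPS2-201, a protease that cuts ATF6 (51 and 34 against 95 and 96, 1.31), and UFD1-201 of the extraction machinery (32 and 39 against 71 and 75, 1.18). So were the retained intron DERL1-206 (40 in each EtOH column against 72 and 79, 1.06) and SEC61B-202 and UGGT2-210, with no defined coding sequence. SEC61B-202 had 9 and 8 against 43 and 47 (2.53) and UGGT2-210 had 6 and 13 against 37 and 47 (2.27). The transcripts with most counts of these genes changed less. They were MBTPS2-202 (1666 and 1675 against 2276 and 2240, 0.58), DERL1-201 (926 and 903 against 947 and 935, 0.18), UGGT2-203 (0.31) and the retained intron UFD1-205 (0.25). SEC61B had no other transcript with counts. EDEM3-206, a retained intron of a mannosidase gene, had 0 counts in EtOH and 41 and 46 in HgCl2. It was 16.02-fold higher against 3 counts, and the lower end of its log2 interval was 3.64. Abundant coding transcripts of the degradation and translocation role stayed within 2-fold. Of the 8 with at least 200 counts, 6 were above 0 and 2 below, with a median of 0.12. Among them were UBE2J1-201 (6157 and 6295 against 5795 and 5852, 0.05), SEL1L-201 (2871 and 2944 against 3770 and 3786, 0.52), SEC62-201 (1777 and 1787 against 2706 and 2727, 0.75) and VCP-201 (244 and 217 against 149 and 146, -0.50). Also within 2-fold were HSPA13-201, an HSP70-like chaperone (3548 and 3540 against 4407 and 4344, 0.45), and ERP44-201 (1312 and 1371 against 1609 and 1592, 0.40). UGGT1-201, within 2-fold too, was lower (469 and 458 against 353 and 354, -0.25). The third sensor, EIF2AK3, had 22 to 26 counts per column over all its transcripts. Well-known targets were scarcely counted, with at most 13 counts per column for HYOU1, 2 for CALR, 1 for SDF2L1 and 0 for PDIA6. Of the 54 genes of the wider list with a promoter in the table, 7 had an ERSE or ERSE-II match (CALR, CANX, CRELD2, ERO1B, HYOU1, PDIA6 and SDF2L1). Among these, CANX-201 had 169 and 178 counts in EtOH and 110 and 117 in HgCl2 (-0.47, -0.82 to -0.12) and ERO1B-202 had 562 and 571 against 571 and 588 (0.18, 0.01 to 0.35). With few counts, HYOU1-208, a retained intron, had 2 in each EtOH column against 9 and 13 (2.53, 0.41 to 5.82). CANX-210 had 0 against 11 and 6. It was 3.13-fold higher against 3 counts, and the lower end of its log2 interval was 1.02.

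**Figure D5:**
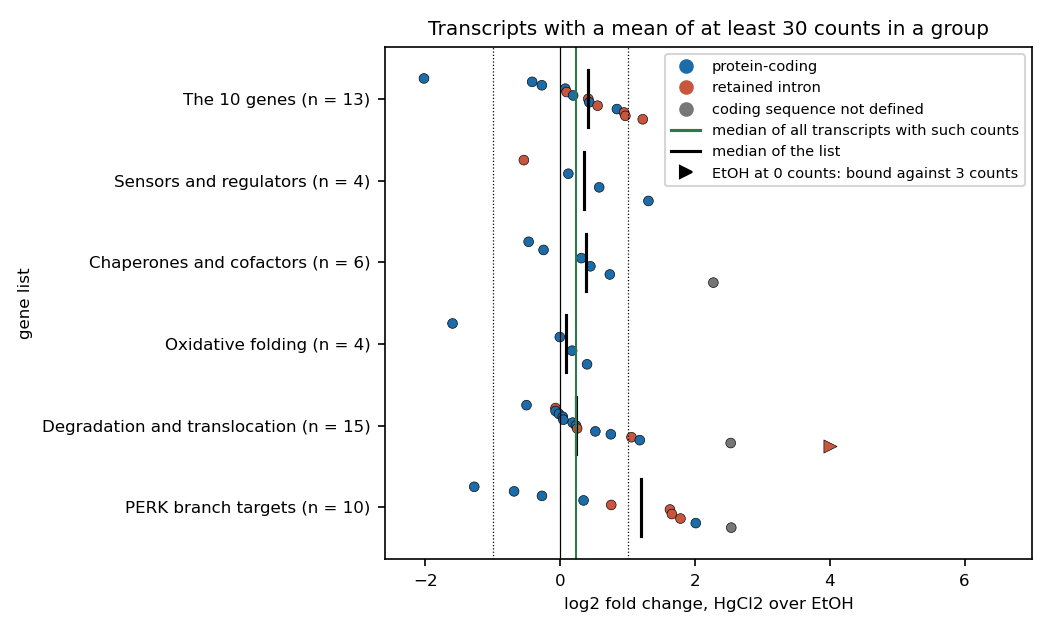
Log2 fold change of HgCl2 over EtOH for transcripts that averaged 30 counts or more in a group, for the 10 genes and 5 further roles; black bars are list medians, the green line is the median of all such transcripts (0.23), dotted lines mark 2-fold, and the triangle is EDEM3-206 at its bound against 3 counts. The PERK branch targets have the highest median, 1.19, with most of their transcripts from ASNS and ATF3, and the 10 genes lie between -2.02 and 1.22.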

How the data were processed

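RNA of the EtOH and HgCl2 groups was sequenced as TruSeq poly-A libraries. Per the study's methods, the authors used Trim Galore for trimming, aligned the reads with STAR 2.5.4b to GRCh38 and counted per transcript with Rsubread; counting options are not given in the sources used here. They deposited raw counts, and FPKM values computed from these counts with DESeq2 1.26.0, which scales by median ratios. Columns were assigned by name.

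Log2 fold changes (HgCl2 minus EtOH) came from the quasi-likelihood fit of edgeR 4.0.16 with TMM (R 4.3.3) over the 17547 transcripts that averaged more than 1 FPKM in EtOH or HgCl2. At least 2-fold was called. Alternatives used DESeq2 1.42.0, limma 3.58.1 on log2(FPKM + 1), other filters, total counts, a replicate block, sums per gene and the omission of each column. Intervals are Clopper-Pearson at 95%. Against a group at 0, folds are bounds against 3 counts that leave out the counting error of the other group.

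Symbols, classes and positions are from GENCODE 44 (223558 of 227368 identifiers found), a later release than that counted. Counted lengths, from FPKM per count, differed from GENCODE 44 for 5 of the 27 transcripts with counts. Statistics used Python 3.11.15 with pandas 2.3.3 and scipy 1.17.1.

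Transcripts of the 10 genes with a mean of at least 30 counts in a group were named, the others given by range or example, and of the further pathway genes those that also differed 2-fold; other examples from those genes were picked after their values were seen. The members and lists were chosen with earlier results of these data known. A marker gene that was also looked at is not reported here.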

Additional observations from a re-analysis of the deposited data

How the results depend on the processing

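The number of transcripts of the 10 genes at least 2-fold apart was 8 of 21 (3 higher, 5 lower). It depended on the filter: 16 (6 higher, 10 lower) of 27 with no FPKM filter, 3 (1 higher, 2 lower) of 16 with filterByExpr, 1 (1 higher, 0 lower) of 14 where every column had to hold 10 counts, and 0 (0 higher, 0 lower) of 9 genes with transcripts summed. For the wider pathway it was 36 (25 higher, 11 lower) of 76, and 79 (38 higher, 41 lower) of 137 with no FPKM filter. It was 22 (15 higher, 7 lower) of 56 with filterByExpr and 8 (6 higher, 2 lower) of 41 where every column had to hold 10 counts. With limma on log2(FPKM + 1) it was 23 (17 higher, 6 lower) of 76. The shares of all transcripts under these settings are not given here. The filters change which transcripts are compared, and the scale moved too: with no filter, XBP1-206 and HERPUD1-218 of the same 21 also passed 2-fold. The cause of the limma difference was not tested.

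Leaving out each column gave 7 to 10 for the 10 genes (2 to 5 higher, 5 lower each time) and 34 to 39 for the pathway (23 to 26 higher, 11 to 13 lower). DESeq2 and total counts gave 9 and 7 for the 10 genes. With the replicate block the counts were 8 and 36, the same as without it. Deviations of same-numbered columns had a correlation of 0.01 over 17547 transcripts. As the columns of a group differ by less than sampling noise, this cannot show whether the replicates were paired.

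None of the 8 changed sign under the alternatives that kept it, and single pathway transcripts were not followed. Signs changed below 2-fold for ATF6-201, HERPUD1-209 and DNAJB11-203. Depth limits the 8 transcripts with means under 30 counts, and column agreement below sampling noise leaves culture-to-culture variation unmeasured.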
